A study of Homo sapiens with 4 samples.

Results

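The 50 genes that build tight junctions and desmosomes were followed in A549 cells, a human lung adenocarcinoma line, with and without overexpression of the deubiquitinase USP12. They were chosen by symbol from the 50868 genes of the count files: the numbered claudins (CLDN), zonula occludens proteins (TJP), plakophilins (PKP), desmocollins (DSC), desmogleins (DSG) and MARVEL domain proteins (MARVELD), with OCLN, CGN, F11R, DSP, JUP, PPL, EVPL, PARD3 and PARD6B. RNA was sequenced from 2 control libraries, labelled control and described in the study's legends as vector control cells, and from 2 libraries labelled USP12-overexpressed. The methods describe human USP12 cloned with an epitope tag into pLVX vectors. Neither the tag used for these libraries nor whether the cells were a clone or a pool is given in the sources used here, and nothing in the labels places the 2 libraries of a group in separate cultures. The p-values therefore measure the spread between these libraries, which may be technical.

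Tight junctions seal the gap between neighbouring epithelial cells. Claudins and tetraspan MARVEL proteins such as occludin form the strands in the membrane. Scaffold proteins such as ZO-1 and cingulin tie the strands to actin. Desmosomes rivet cells together: desmogleins and desmocollins reach across the gap, plakoglobin and plakophilins bind their tails, and desmoplakin, envoplakin and periplakin link the plaque to keratin filaments.

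The 4 libraries held between 14280081 and 16305356 counts, and levels are given as CPM, counts scaled to a library size of 1000000 after TMM normalisation. At these depths 3 counts corresponded to between 0.166 and 0.227 CPM, a limit that covers counting error only. USP12 itself had 15.2 and 34.4 CPM in control replicates 1 and 2 and 1745 and 2235 CPM in USP12 replicates 1 and 2 (log2 fold change 6.32, standard error 0.57, edgeR quasi-likelihood adjusted p = 0.0975). The 2 control libraries stood further apart (SD of the log2 ratio 1.32 over 15222 genes) than the 2 USP12 libraries (0.62), and the count column of control replicate 1 carries a different numeric prefix in its heading from the other 3, which share theirs. What the prefix marks is not stated, and it cannot be told apart from the library itself; values against control replicate 2 alone are within the shared prefix. Results that rest on the choice of control library are given against each control. Of the 5 epithelial markers, all 5 exceeded 3 counts in every library, and their summed level was 5060 to 9638 CPM in the controls and 3976 to 4275 CPM with USP12. KRT8 and KRT18 made up nearly all of that sum. They, KRT19 and EPCAM were lower in both USP12 libraries than in both controls. CDH1 overlapped between the groups, with 130 and 99.1 CPM in the controls and 76.5 and 134 CPM with USP12. The summed airway basal and squamous markers ranged from 42.3 to 45.2 CPM in the controls and from 10.3 to 20.7 CPM with USP12, nearly all of it TP63, with KRT5, KRT14 and KRT6A at 0 to 5 counts. Endothelial markers summed to 8.59 to 15.4 CPM against 0.504 to 1.32 CPM, with VWF and KDR at 0 to 3 counts. CDH5 (136 and 96 counts against 2 and 5) and PECAM1 (68 and 56 counts against 4 and 14) made up nearly all of that sum and were lower in both USP12 libraries. Fibroblast markers summed to 3.1 to 18 CPM against 16.3 to 20.7 CPM with DCN at 0, and blood markers to 48.3 to 79.8 CPM against 47.7 to 63.6 CPM with CD3E at 0 and PTPRC at 0 to 1 count. CD68, at 686 to 1044 counts, made up nearly all of the blood sum, and LYZ had 1 to 27 counts. The part of these marker differences in the results was not tested.

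Cells that overexpressed USP12 held less of the tight junction plaque transcripts TJP3 and CGN and of CLDN7, and more CLDN2 and CLDN11, by unadjusted p. Of the 50 genes, 31 passed edgeR's filter on low counts and were tested. A criterion of an unadjusted p of 0.05 or less with a log2 fold change of at least 1 in size was met by 3 genes that were lower (TJP3, CGN and CLDN7) and by 2 that were higher (CLDN2 and CLDN11). The study gives thresholds of these sizes for downregulated genes, without saying whether its p was adjusted, and here they were applied in both directions. These 5 were 16.1% of the 31 genes, where 7.33% of all 15222 genes tested met it, 4.41% lower and 2.92% higher. CLDN11 passed the filter only through the USP12 libraries. CLDN7 and MARVELD3 were over the filter's cutoff in both control libraries, which sufficed, and in 1 of the USP12 libraries. A count over the genes that passed is therefore a description. No gene of the 31 had an adjusted p under 0.05 from the quasi-likelihood test (0 of 31, and 0% of all genes), and 5 had an unadjusted p under 0.05, where 7.59% of all genes did. The exact test and the likelihood ratio test of edgeR each called 4 of the 31 at an adjusted p under 0.05 (CLDN2, CLDN7, CLDN11 and TJP3), where they called 2.82% and 3.11% of all genes. The DESeq2 Wald test called 2 (CLDN2 and TJP3, where it called 2.75% of all genes). Without the filter on low counts 3 genes were called (CLDN2, CLDN7 and TJP3, with 2.13% of all genes). With an offset for GC content none was called (0 of 31, with 0.113% of all genes). At an adjusted p under 0.05, 6 of the 31 genes were called without control replicate 1 (10.5% of all genes), 14 without control replicate 2 (32.2% of all genes) and 0 without either USP12 replicate. Each fit without 1 library left 1 library in a group, which is assumed to vary like the other group.

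Promoter sequence was searched for a motif of junction gene repressors. The E-box, CACCTG or its reverse complement CAGGTG, counted as 1 motif over both strands, is bound by repressors of epithelial junction genes of the SNAI and ZEB families. RefSeq promoter windows (GRCh38.p14), 300 bases running from 250 before to 50 after a start site, were found for 21 of the 31 genes. Among the 7 genes that have a window and a fitted log2 difference of at least 1 in size, 3 held the motif, and they are printed with the motif in capitals, beside CGN, which met the criterion and whose printed window holds none. All are written 5′ to 3′ on the strand of the gene.
CLDN7 (chr17:7262429-7262728, minus strand): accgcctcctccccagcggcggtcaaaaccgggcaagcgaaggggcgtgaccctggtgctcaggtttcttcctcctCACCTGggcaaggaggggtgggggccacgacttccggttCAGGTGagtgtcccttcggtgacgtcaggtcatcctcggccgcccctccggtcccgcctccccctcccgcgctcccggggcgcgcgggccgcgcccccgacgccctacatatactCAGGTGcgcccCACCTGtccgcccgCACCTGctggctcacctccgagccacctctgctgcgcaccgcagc
TJP3 (chr19:3721487-3721786, plus strand): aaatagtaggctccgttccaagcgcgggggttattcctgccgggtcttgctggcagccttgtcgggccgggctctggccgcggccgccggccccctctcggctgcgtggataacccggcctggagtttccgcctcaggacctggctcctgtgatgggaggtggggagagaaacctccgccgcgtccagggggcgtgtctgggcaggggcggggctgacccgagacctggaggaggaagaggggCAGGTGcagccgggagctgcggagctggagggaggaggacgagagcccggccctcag
CLDN3 (chr7:73770221-73770520, minus strand): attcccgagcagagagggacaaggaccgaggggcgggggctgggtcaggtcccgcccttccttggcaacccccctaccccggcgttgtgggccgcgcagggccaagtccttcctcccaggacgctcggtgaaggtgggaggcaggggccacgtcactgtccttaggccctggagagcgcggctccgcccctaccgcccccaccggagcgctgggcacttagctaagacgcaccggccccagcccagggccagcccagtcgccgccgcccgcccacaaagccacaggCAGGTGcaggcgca
CGN (chr1:151511137-151511436, plus strand): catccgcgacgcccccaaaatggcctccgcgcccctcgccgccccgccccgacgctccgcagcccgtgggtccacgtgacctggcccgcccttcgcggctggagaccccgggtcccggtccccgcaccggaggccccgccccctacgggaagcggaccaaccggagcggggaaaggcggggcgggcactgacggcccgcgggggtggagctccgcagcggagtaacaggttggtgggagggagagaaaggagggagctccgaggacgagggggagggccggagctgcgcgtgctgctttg
The CLDN7 window held 5 copies. Their first bases lie at -174, -135, -20, -9 and 6, where 1 is the start site and the base before it is -1. At least 5 copies were held by 33 of 35116 windows (0.094%). That limit was taken from the CLDN7 window after the search. The share takes no account of the GC content of the CLDN7 window (71.7%) and is a description. The other CLDN7 window held none. The TJP3 window held 1 copy at -7 and the other TJP3 window none, and the CLDN3 window held 1 copy at 37. Counted by gene, 3 of 7 is 42.9%, against 47.6% of the 21 tested junction genes with a window. Counted by window, the motif was in 27.3% of the 11 windows of these 7 genes, in 33.3% of the 33 windows of tested junction genes and in 20.6% of all windows. A match is a description of these letters and not a binding site.

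Claudins are the strand-forming proteins, and which claudins a cell makes sets how leaky its junctions are to ions and water. Of the 24 claudin genes, 10 were tested. CLDN2 (chromosome X, 106900164 to 106930861 on the plus strand), which forms channels for cations and water, had 15.7 and 16.2 CPM in the controls and 70.9 and 56.3 CPM with USP12. Both USP12 libraries were above both control libraries, and the control libraries differed by 0.04 on the log2 scale. The log2 fold change was 1.99 (standard error 0.40, edgeR quasi-likelihood adjusted p = 0.241), and it was 1.97 against control replicate 2 alone and 2.04 against control replicate 1 alone. Its adjusted p ranged from 0.00355 to 1 over the alternatives. An exon of RIPPLY1 overlaps CLDN2 on the opposite strand and had at most 1 count in any library.

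CLDN7 (chromosome 17, 7259903 to 7263983 on the minus strand), a claudin of lung and gut epithelium that also lies along the lateral membrane, had 3.03 and 5.60 CPM in the controls and 0.360 and 0.693 CPM with USP12. The groups did not overlap, and the USP12 values rest on 5 and 10 counts. The log2 fold change was -3.01 (standard error 0.77, edgeR quasi-likelihood adjusted p = 0.332, from 0.0163 to 1 over the alternatives). It was -3.38 against control replicate 2 and -2.47 against control replicate 1. ELP5 shares exon bases with CLDN7 on the opposite strand, and had 97.8 and 44.8 CPM in the controls and 43.2 and 32.9 CPM with USP12. Whether strand was used in counting is not given in the sources used here, so counts of these overlapping genes are uncertain.

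CLDN11 (chromosome 3, 170418868 to 170454733 on the plus strand), best known from myelin and the testis barrier, had 0 and 2 counts in the controls and 20 and 28 counts with USP12. Even in the USP12 libraries this was only 1.44 and 1.94 CPM. Summed over each group, the scaled ratio was 26.5, with a 95% exact interval from 6.94 to 225 that covers counting error only. The quasi-likelihood test of edgeR gave an adjusted p of 0.334, from 0.00407 to 1 over the alternatives. An unnamed gene model overlaps CLDN11 on the same strand.

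The remaining claudins did not meet the criterion. CLDN1, a barrier-forming claudin with a median length-scaled level of 17.3 RPKM (CPM per 1000 bases of exon), had 59.2 and 83.8 CPM in the controls and 54.0 and 66.2 CPM with USP12. CLDN3 had 55.4 CPM in control replicate 1, 8.26 CPM in control replicate 2, and 10.6 and 5.54 CPM with USP12. CLDN3 was thus high in 1 library alone: its log2 fold change of -1.98 (standard error 0.92) became -0.03 without control replicate 1 and -2.75 without control replicate 2. CLDN4, its neighbour on chromosome 7, had 5.07 and 2.22 CPM against 3.02 and 1.80 CPM. CLDN12 (12.0 and 26.7 CPM against 15.8 and 20.4 CPM) and CLDN23 (6.89 and 3.77 CPM against 5.54 and 4.85 CPM) lay between the control libraries in both USP12 libraries. Exons of CDK14, GTPBP10, PTTG1IP2 and an unnamed gene model overlap CLDN12 on the same strand, so its counts are uncertain. CLDN15, a channel-forming claudin of the intestine, had 12.0 and 14.4 CPM against 20.4 and 22.2 CPM. The CLDN15 groups did not overlap, with a log2 fold change of 0.69 (standard error 0.43, edgeR adjusted p = 0.857). CLDN16, a kidney claudin, had 0.605 and 1.05 CPM against 1.01 and 0.208 CPM. The 14 claudins not tested (CLDN5, CLDN6, CLDN8, CLDN9, CLDN10, CLDN14, CLDN17, CLDN18, CLDN19, CLDN20, CLDN22, CLDN24, CLDN25 and CLDN34) had at most 5 counts in any library, and 6 of them had 0 in all 4. CLDN18, which marks alveolar epithelium, was among those at 0, which allows up to 3 counts per library.

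**Figure D1:**
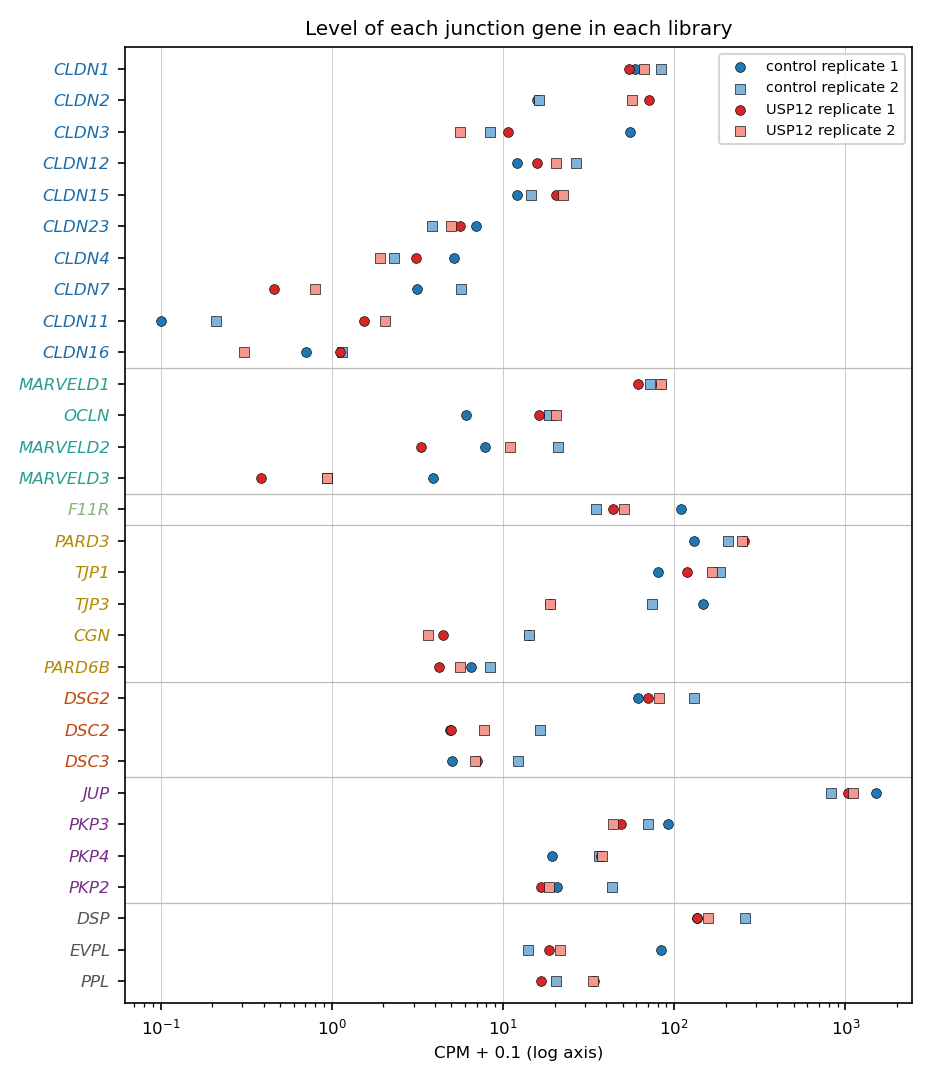
Level of 30 of the 31 tested junction genes in each library, as CPM plus 0.1 on a log axis, grouped by role from claudins at the top to plakins at the bottom; circles are replicate 1 and squares replicate 2, blue for control and red for USP12. CLDN2 and CLDN11 sit to the right in both USP12 libraries and TJP3, CGN and CLDN7 to the left, while CLDN3 and EVPL are high in control replicate 1 alone (55.4 and 83.2 CPM).

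The plot of levels shows that much of the spread lay between the 2 control libraries. As a share of the summed length-scaled claudin level, CLDN2 was 6.05% and 9.86% in the controls and 36.1% and 30.8% with USP12. CLDN3 was 57.1% in control replicate 1 and 13.4%, 14.4% and 8.10% in control replicate 2 and USP12 replicates 1 and 2, and CLDN1 was 21.4%, 47.8%, 25.8% and 34.0% in that order. The sum itself was 76.2 and 48.3 RPKM in the controls and 57.6 and 53.7 RPKM with USP12, so the USP12 libraries lay between the control libraries in total while CLDN2 took a larger share. In bulk RNA, fewer cells that express a gene and less RNA per cell cannot be told apart.

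**Figure D2:**
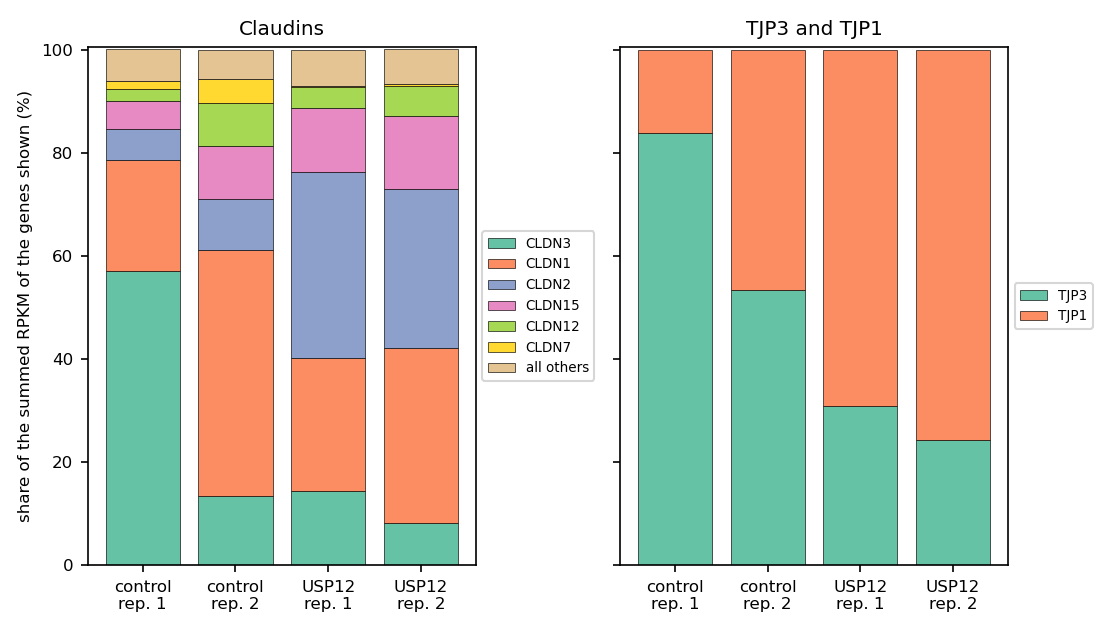
Share of the summed length-scaled level (RPKM, in percent) for 6 claudins and the sum of the others on the left and for TJP1 and TJP3 on the right, stacked in 1 bar for each of the 4 libraries. CLDN2 made up 36.1% and 30.8% of the claudin level in the USP12 libraries against 6.05% and 9.86% in the control libraries, and TJP3 30.9% and 24.2% of the level of TJP1 and TJP3 against 83.8% and 53.4%.

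In the plaque of the tight junction, TJP3 and CGN met the criterion as lower in the cells that overexpressed USP12, and the scaffold TJP1 did not. TJP3 (chromosome 19, 3708362 to 3750813 on the plus strand), which encodes ZO-3, the epithelial member of the zonula occludens family, had 147 and 73.9 CPM in the controls and 18.6 CPM in both USP12 libraries. The control libraries differed by 0.99 on the log2 scale, and both were far above the USP12 libraries. This gave a log2 fold change of -2.57 (standard error 0.48, edgeR quasi-likelihood adjusted p = 0.210), with -1.99 against control replicate 2 and -2.95 against control replicate 1. Its adjusted p ranged from 9.4e-05 to 1 over the alternatives. APBA3 overlaps TJP3 exons on the opposite strand and had 28.2 and 11.7 CPM against 12.5 and 8.94 CPM.

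CGN (chromosome 1, 151510510 to 151538692 on the plus strand) encodes cingulin, which links the plaque to actomyosin and sequesters a RhoA activator at the junction. It had 14.1 and 14.0 CPM in the controls and 4.39 and 3.53 CPM with USP12. Both control libraries were alike and above both USP12 libraries. The log2 fold change of CGN was -1.82 (standard error 0.48, edgeR quasi-likelihood adjusted p = 0.345), and it was -1.81 and -1.80 against control replicates 2 and 1 alone. No alternative that kept all libraries gave CGN an adjusted p under 0.05. The lowest was 0.0654, from the likelihood ratio test of edgeR, and the highest 0.463, from its quasi-likelihood test with at least 10 counts in every library. No annotated exon overlaps those of CGN.

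TJP1, which encodes ZO-1, had 80.6 and 184 CPM in the controls and 118 and 166 CPM with USP12, between the control values. TJP1 was 16.2% and 46.6% of the summed length-scaled level of TJP1 and TJP3 in the control libraries and 69.1% and 75.8% with USP12. The polarity scaffold PARD3 had 130 and 206 CPM against 256 and 250 CPM, and its partner PARD6B had 6.36 and 8.26 CPM against 4.10 and 5.47 CPM. Neither overlapped between groups, with log2 fold changes of 0.59 (standard error 0.38) and -0.61 (standard error 0.52) that did not meet the criterion.

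Among the genes grouped as tetraspan MARVEL proteins, some of which sit in the strands with the claudins, none met the criterion. OCLN, which encodes occludin, had 5.98 and 18.5 CPM in the controls and 16.1 and 20.2 CPM with USP12, so it stood low in control replicate 1 alone. A pseudogene of OCLN, OCLNP1, is annotated, and fragments that match both could make these counts uncertain, which was not tested. MARVELD2, which encodes tricellulin, the protein of tricellular corners, had 7.79 and 20.9 CPM against 3.24 and 10.9 CPM. MARVELD1, which is in the group by its symbol, had 83.9 and 72.1 CPM against 61.7 and 83.2 CPM. MARVELD3 had 3.78 and 0.831 CPM against 0.288 and 0.831 CPM, and its log2 fold change of -2.01 (standard error 1.05) was -0.56 without control replicate 1. Exons of PHLPP2 and an unnamed gene model overlap MARVELD3 on the opposite strand. F11R, which encodes the adhesion molecule JAM-A, had 109 CPM in control replicate 1 and 35.0, 43.5 and 50.8 CPM in the other 3 libraries. Its log2 fold change was 0.43 against control replicate 2 and -1.17 against control replicate 1.

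**Figure D3:**
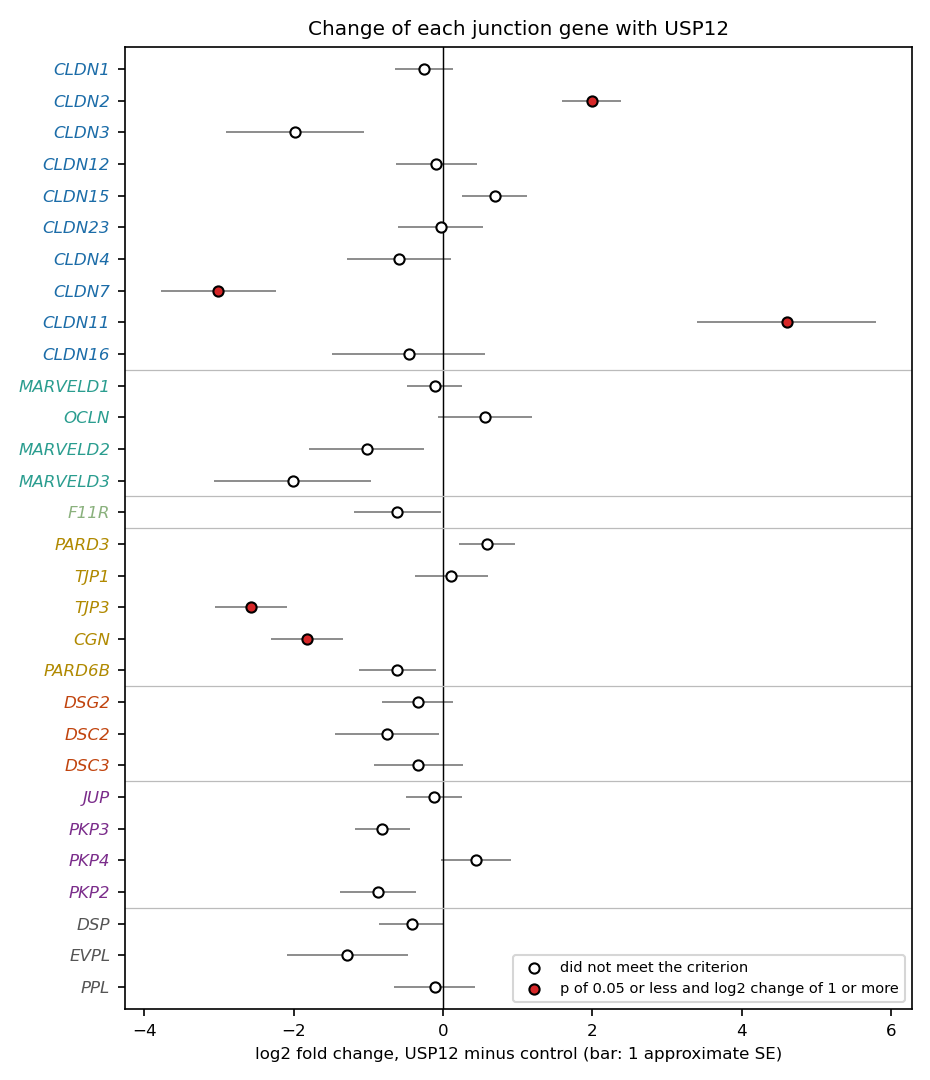
Log2 fold change of 30 of the 31 tested genes, USP12 minus control, with bars of 1 approximate standard error, in the order of the levels plot; filled points met the criterion. TJP3 at -2.57, CGN at -1.82 and CLDN7 at -3.01 lie to the left and CLDN2 at 1.99 and CLDN11 furthest to the right, and no desmosome gene is filled.

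Of the 15 desmosome genes, 10 were tested and 0 met the criterion, where 7.33% of all genes did, so 0 of 10 is near the share over all genes. None had an unadjusted p under 0.05 or was called by the DESeq2 Wald, exact or likelihood ratio tests. Without control replicate 1, DSP and PKP2 were called lower at an edgeR adjusted p under 0.05, and without control replicate 2, EVPL and PKP3 were called lower and PKP4 higher. Those 2 fits called 10.5% and 32.2% of all genes. The desmosomal cadherins lie side by side on chromosome 18, in the order DSC3, DSC2, DSC1, DSG1, DSG4, DSG3 and DSG2, from 30989365 to 31549008. Expression was at the ends of this cluster. DSC3 and DSC2 at one end and DSG2 at the other were tested, while the 4 genes between them, known from skin, had 0 to 2 counts in any library. DSG2 made up 86.3% and 82.5% of the summed length-scaled level of the cluster in the control libraries and 85.2% with USP12 in both, so the makeup was alike in all 4.

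DSG2, the desmoglein of simple epithelia, had 61.0 and 131 CPM in the controls and 70.3 and 81.8 CPM with USP12. DSC2, its partner in simple epithelia and heart, had 4.77 and 16.3 CPM against 4.89 and 7.62 CPM. DSC3 had 4.92 and 12.2 CPM against 6.91 and 6.79 CPM. For all 3 cadherins, both USP12 libraries lay between the control libraries, and control replicate 2 was the highest library. Against control replicate 2 alone the log2 fold changes of DSG2, DSC2 and DSC3 were -0.78, -1.38 and -0.84, and against control replicate 1 alone they were 0.35, 0.42 and 0.51.

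DSP, which encodes desmoplakin, the link to keratin filaments, followed the same library pattern. It had 135 and 259 CPM in the controls and 136 and 158 CPM with USP12, a log2 fold change of -0.81 against control replicate 2 and 0.15 against control replicate 1. EVPL, which encodes envoplakin, had 83.2 CPM in control replicate 1 and 13.9, 18.5 and 21.3 CPM in control replicate 2 and USP12 replicates 1 and 2. EVPL was therefore high in 1 library, and its log2 fold change of -1.28 (standard error 0.81) was 0.52 against control replicate 2 and -2.04 against control replicate 1. PPL, which encodes periplakin, had 33.8 and 20.2 CPM against 16.6 and 33.6 CPM.

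JUP, which encodes plakoglobin, the armadillo protein shared by desmosomes and adherens junctions, was the most abundant of the 31 genes per length (median 216 RPKM). It had 1513 and 820 CPM in the controls and 1031 and 1109 CPM with USP12, between the controls. PKP3, the plakophilin found in most desmosomes, had 92.1 and 70.5 CPM against 48.9 and 44 CPM, and both USP12 libraries were below both controls (log2 fold change -0.81, standard error 0.37, edgeR adjusted p = 0.737). PKP2, which is the plakophilin of the heart and is also made by simple epithelia, had 20.5 and 43.2 CPM against 16.6 and 18.4 CPM. Its groups did not overlap either, but the log2 fold change was -1.31 against control replicate 2 and -0.20 against control replicate 1. PKP4 had 19.2 and 36.3 CPM against 37.4 and 38.0 CPM, and was low in control replicate 1 alone. PKP1, the plakophilin of skin, had 0 to 5 counts and was not tested.

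**Figure D4:**
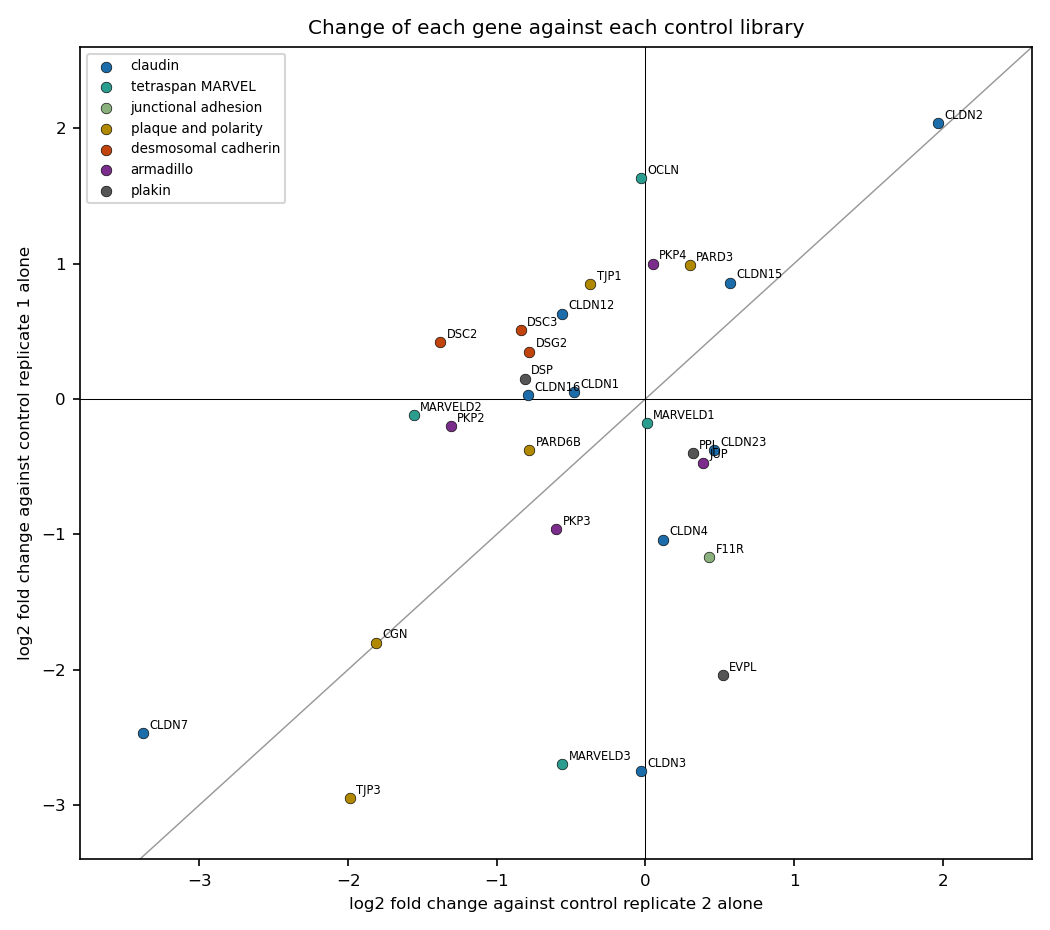
Log2 fold change of each gene of the levels plot against control replicate 2 alone (horizontal) and against control replicate 1 alone (vertical), coloured by role, with the line of equal values in grey; CLDN11 is left out, at 3.84 and 7.57. CLDN2 and CGN lie close to the line, TJP3 (-1.99 and -2.95) and CLDN7 (-3.38 and -2.47) have the same sign on both axes, while DSG2, DSC2, DSC3 and DSP fall in the upper left quadrant and EVPL and F11R in the lower right.

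The plot of changes against each control shows that 17 of the 31 genes had log2 fold changes of opposite sign against the 2 controls, where 50.5% of all genes tested did. Groups did not overlap for 7 genes that were lower and 5 that were higher, or 38.7% of the 31 genes, where 36.5% of all genes did not overlap. These shares were close to those over all genes. MARVELD3 is among the 7 lower genes, although control replicate 2 and USP12 replicate 2 were equal at the digits given (0.831 CPM). A lower point estimate was found for 24 of the 31 genes, against 53.6% of all genes. The median log2 fold change of the 31 genes was -0.34, against -0.06 over all genes. Against control replicates 2 and 1 alone it was -0.37 and -0.18, and over all genes 0.02 and 0.09. The 10 desmosome genes had a median of -0.38, which was -0.69 against control replicate 2 and -0.03 against control replicate 1. By library, the median log2 deviation of the 31 genes was -0.05 and 0.21 in control replicates 1 and 2. It was -0.27 and -0.01 in USP12 replicates 1 and 2. Control replicate 1 thus lay below USP12 replicate 2, so the groups overlapped in this median.

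The difference between the control libraries moved with the GC content of the transcripts. The 8 genes at least 2 times higher in control replicate 2 than in control replicate 1, with over 3 counts in at least 1 of them, where 23.5% of all genes were, had 38.1 to 46.5% GC in their longest transcript. The 6 genes at least 2 times higher in control replicate 1, where 21.1% of all genes were, had 47.7 to 69.2% GC. Over the 31 genes the Spearman correlation of GC content with the log2 difference of control replicate 2 minus control replicate 1 was -0.766, and over the 15094 genes tested with a GC value it was -0.586. For USP12 replicate 2 minus USP12 replicate 1 it was -0.136 over all genes. These are descriptions of single pairs of libraries, in which all genes share the same 2 libraries. With an offset for GC content in each library, an alternative added after the data were seen, the log2 fold changes were -2.18 for TJP3, -1.72 for CGN, -2.96 for CLDN7, 1.98 for CLDN2 and 4.49 for CLDN11, and -1.18 for CLDN3 and -0.60 for EVPL.

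**Figure D5:**
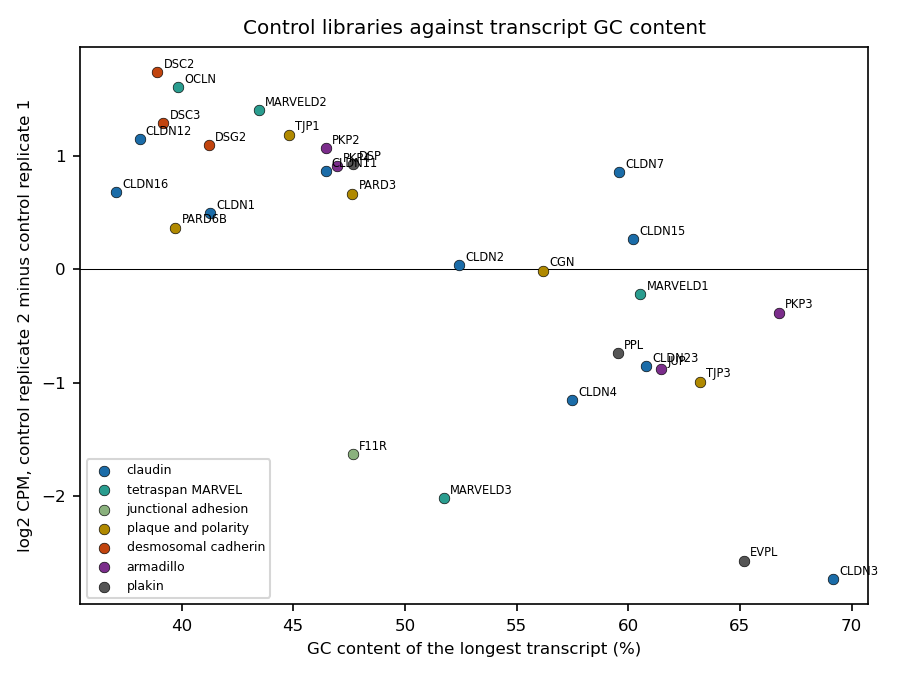
Log2 CPM of control replicate 2 minus control replicate 1 (vertical) against the GC content of the longest transcript in percent (horizontal) for the 30 genes of the levels plot, coloured by role. The desmosomal cadherins, OCLN and CLDN12 lie at the upper left with 38.1 to 41.2% GC, and EVPL and CLDN3 at the lower right with 65.2 and 69.2% GC, while CLDN2 and CGN lie near 0.

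Of the other genes of epithelial junctions, 35 were found in the files and 31 were tested. The criterion was met by 1 lower and 1 higher gene. LSR, which encodes angulin-1, the protein that brings tricellulin to tricellular corners, had 50.3 and 18.8 CPM in the controls and 10.5 and 8.38 CPM with USP12 (log2 fold change -1.87, standard error 0.60). CTNND1, which encodes p120-catenin, the protein that holds E-cadherin at the membrane, had 89.7 and 119 CPM against 208 and 302 CPM (log2 fold change 1.29, standard error 0.39). Against control replicate 2 alone LSR had a log2 fold change of -0.99, and against control replicate 1 alone -2.38. These 2 were 6.45% of the genes tested, near the share over all genes.

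Of 15 transcriptional and splicing regulators of epithelial junction genes, 10 were tested. The criterion was met by 2 lower genes and 1 higher gene, or 30% of the 10, where 7.33% of all genes met it. ESRP1 passed the filter on low counts only through the control libraries. ZEB2 passed it through both USP12 libraries and control replicate 1. The share over the genes that passed is therefore a description. GRHL3, a grainyhead factor that drives epithelial barrier genes, had 157 and 25.9 CPM in the controls and 8.13 and 7.69 CPM with USP12 (log2 fold change -3.53, standard error 0.87, edgeR quasi-likelihood adjusted p = 0.320). ESRP1, an epithelial splicing factor, had 3.41 and 1.16 CPM against 0.288 and 0.485 CPM (log2 fold change -2.53, standard error 0.92). ZEB2, a repressor that binds E-boxes, had 2.27 and 0.554 CPM against 4.68 and 7 CPM (log2 fold change 2.06, standard error 0.82). In all 3 the groups did not overlap, and the control libraries themselves differed by more than 2 times. Against control replicates 2 and 1 alone the log2 fold changes were -1.71 and -4.28 for GRHL3, -1.57 and -3.08 for ESRP1, and 3.38 and 1.39 for ZEB2. ZEB1, the other ZEB repressor and the more abundant one per length, had 9.76 and 17.8 CPM against 7.56 and 9.49 CPM. Its groups did not overlap either, in the opposite direction to ZEB2, and it did not meet the criterion (log2 fold change -0.69, standard error 0.52). OVOL2, with 8 and 5 counts in the controls and 0 in both USP12 libraries, was not tested, and GRHL2 had 0 or 1 count. ESRP2 (1 and 6 counts against 0 and 0), OVOL1 (0 and 0 against 6 and 0) and SNAI2 (0 and 2 against 8 and 6) were not tested either. SNAI1 overlapped between the groups (log2 fold change 0.31, standard error 0.69).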

How the data were processed

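Stranded mRNA libraries of A549 cells, 2 control and 2 USP12-overexpressing, were sequenced. The authors filtered reads with Seqtk, mapped them to GRCh38 with HISAT2 2.0.4 and deposited raw counts of uniquely mapped fragments per gene from StringTie 1.3.0. Neither annotation release nor strand setting is given in the sources used here. Totals per library are in the report.

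Counts were analysed in R 4.3.3 with edgeR 4.0.16: filterByExpr, TMM, quasi-likelihood test of USP12 against control over 15222 genes, Benjamini-Hochberg adjustment. Standard errors are approximate, from the log2 fold change over the square root of F. Log2 CPM used a prior count of 2. An exact permutation test of 2 libraries against 2 cannot go below p = 0.333. Positions and exon lengths came from GENCODE release 44 on GRCh38, matched by identifier for all 50 genes, and GC content from its longest transcripts. Every tested gene of the group is named except 1, whose values are not reported here but which is included in the counts, and genes of the other lists are named where they met the criterion. GRHL2, OVOL1, OVOL2, ESRP2, SNAI1, SNAI2, ZEB1, CLDN18 and the overlapping genes ELP5, APBA3 and RIPPLY1 were chosen after their values were seen. OCLNP1 and the genes that overlap CLDN12 and MARVELD3, whose counts are not given, were chosen after the data were seen. Genes and lists were chosen with earlier results of these data known. Alternatives were DESeq2 1.42.0 size factors and Wald test, no filter, at least 10 counts in every library, edgeR's exact and likelihood ratio tests, the replicate number as a block, leaving out each library and, added after the data were seen, a GC content offset with and without the block. A planned comparison of claudin proteins was not made.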

Additional observations from a re-analysis of the deposited data

How the results depend on the processing

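The 5 genes that met the criterion kept their direction under every alternative; CLDN7 and CLDN11 were not tested at a minimum of 10 counts. At an adjusted p under 0.05, the junction genes called went from 0 to 3 with all genes kept, 2 with the DESeq2 Wald test, 4 with the exact test, 4 with the likelihood ratio test, 2 with the replicate block and 2 with block and GC content offset together, and from 0 to 14 over the fits that left out 1 library. All genes called went from 0 to 528, 410, 429, 473, 404 and 192 under the same settings, to 17 with the GC content offset and from 40 to 5162 without 1 library. By the criterion, 5 junction genes became 8 without a filter, 3 with at least 10 counts in every library and 3 to 10 without 1 library, 1116 genes overall became 1861 without a filter and 459 to 4629 without 1 library, and 2 other junction genes became 4 with the DESeq2 Wald test and 0 to 8 without 1 library. With 1 library in a group, that library is assumed to vary like the other group.

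The log2 fold change of USP12 passed an adjusted p of 0.05 at 6.33 without a filter, 6.31 with the DESeq2 Wald test, 6.32 with the exact and the likelihood ratio test, 6.43 once replicates were blocked (replicate block), 6.35 after correcting for GC content, 6.35 under both of these, and 5.85 to 7.06 without 1 library. The replicate number was not shown to pair the libraries (correlation of same-numbered deviations 0.152 across genes), and the block left 1 residual degree of freedom. The prior degrees of freedom became infinite with the block, without a filter and without either USP12 replicate, against 4.15, so those fits share 1 spread among genes of like abundance. The median of all genes moved from -0.06 to 0.09 without control replicate 2.

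None of the junction genes whose sign turned had met the criterion. It turned with replicates as a block (CLDN12 0.01, CLDN23 0.02), with the GC content offset (CLDN23 0.28, JUP 0.21, MARVELD1 0.11, PPL 0.17, TJP1 -0.01) and with block and GC content offset together (CLDN23 0.28, JUP 0.21, MARVELD1 0.12, PPL 0.08). Over the fits that left out 1 library, the sign turned for CLDN1 (-0.48 to 0.05), CLDN12 (-0.56 to 0.63), CLDN16 (-1.95 to 0.27), CLDN23 (-0.38 to 0.46), CLDN4 (-1.04 to 0.12), DSC2 (-1.38 to 0.42), DSC3 (-0.84 to 0.51), DSG2 (-0.78 to 0.35), DSP (-0.81 to 0.15), EVPL (-2.04 to 0.52), F11R (-1.17 to 0.43), JUP (-0.47 to 0.39), MARVELD1 (-0.34 to 0.11), OCLN (-0.03 to 1.63), PPL (-0.70 to 0.33) and TJP1 (-0.37 to 0.85).
Low counts limit CLDN11, CLDN7, CLDN16 and MARVELD3, and ESRP1 and ZEB2 among the regulators. The cause of the changes between settings was not tested.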
